A study of Mus musculus with 8 samples.

Results

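RNA of 9 imprinted genes, Dlk1, Meg3, Rian, Peg3, Plagl1, Nnat, H19, Gnas and Snrpn, was followed in pancreatic islets. They were chosen by name as imprinted genes known in the pituitary, placenta or islet, and each matched 1 row among the 53012 gene identifiers of the count table. The libraries came from 8 mice aged 17 months, with the islets of each animal kept apart and both sexes in each group. The 4 βIgf1r mice carried no Cre (Ins1-CreERT2-/- Igf1r flox/flox) and received corn oil, while the 4 βIgf1rKD mice (Ins1-CreERT2+/- Igf1r flox/flox) received tamoxifen at 0.075 mg per g body weight in 5 daily injections, and islets were collected 7 days after the last one. All 8 mice were thus homozygous for the floxed exon 3 of Igf1r, the receptor for insulin-like growth factor 1, and Cre and tamoxifen could not be told apart. The genotype is written Ins1-CreERT2, whereas the study's methods describe the Cre as driven by a rat insulin promoter, which restricts it to β-cells among the islet cell types.

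An imprinted gene is transcribed mainly from the copy inherited from 1 parent, and the choice is kept by DNA methylation laid down in the germ line. Imprinted genes lie in clusters that share a control region, and many of them regulate growth, feeding and hormone release. Neighbours within a cluster are often read from opposite parental copies. In the set, Dlk1, Peg3, Plagl1, Nnat and Snrpn are read from the paternal copy and Meg3, Rian and H19 from the maternal copy, while Gnas uses both or 1 copy depending on the promoter and the tissue. The counts do not separate the parental copies, so they measure how much RNA a gene gave and not its imprinting.

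Libraries held between 21633925 and 42391106 counts. Igf1r itself lay between 46.8 and 60.9 CPM (counts scaled to the size of the library) in βIgf1r islets and between 46.9 and 57.9 CPM in βIgf1rKD islets, and the groups overlapped (log2 fold change -0.08, unadjusted p = 0.483, edgeR). A count over the whole gene includes the exons outside the floxed one and the cells without Cre, so it does not check the deletion. Markers of β-cells made up 16.1 to 22.3% of counts in βIgf1r and 10.1 to 22.0% in βIgf1rKD islets. Markers of acinar cells, the enzyme-producing cells around the islet, made up a median of 7.41% and 16.1% respectively, and the groups overlapped. In bulk RNA, fewer cells of a type and less RNA per cell cannot be told apart. Over the whole table, 0 of 15474 genes passed an adjusted p of 0.05 by the quasi-likelihood test of edgeR, against 8 with DESeq2 and 1 with limma-voom, and 637 genes had an unadjusted p under 0.05.

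The long RNAs of the set, Meg3, Rian and H19, carry microRNA precursors, and the sequences below show what these RNAs encode beside their own transcript. They are mature mouse microRNAs from RefSeq (GRCm38.p6), 5′ to 3′, with the seed (bases 2 to 8) in capitals. Both arms of miR-770 lie in Meg3, miR-370-3p lies in Rian and both arms of miR-675 lie in H19. MiR-410-3p comes from Mirg, a further maternal RNA downstream of Rian.
miR-770-5p: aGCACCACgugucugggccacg
miR-770-3p: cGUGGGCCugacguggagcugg
miR-370-3p: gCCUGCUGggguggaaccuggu
miR-410-3p: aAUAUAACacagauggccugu
miR-675-5p: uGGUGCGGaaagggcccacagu
miR-675-3p: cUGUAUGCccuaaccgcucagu
No 2 of these seeds are alike. The annotation places 3 mature microRNAs in Meg3, 6 in Rian, 2 in H19 and 26 in Mirg. Their precursor rows held at most 2 counts in any mouse. Libraries selected for poly(A) RNA do not capture mature microRNAs, so only the host RNAs were measured.

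The 9 genes spanned a wide range of levels in the islet. Gnas and Peg3 were the highest on the scale of CPM per kb of exon (union of a gene's exons), at 84.963 ± 7.36 and 57.5 ± 6.96 (mean ± SD, n = 8 mice). Snrpn followed at 23.7 ± 1.84, Nnat at 15.5 ± 3.50, Meg3 at 13.9 ± 2.44 and Rian at 8.72 ± 1.19. Plagl1 lay far lower at 0.966 ± 0.240, Dlk1 at 0.124 ± 0.0573 and H19 at 0.0187 ± 0.0209, so the set held 1 gene, H19, that was at or near 0 in these islets. Each gene exceeded the next in 8 of 8 mice except Nnat over Meg3, which held in 4 of 8 mice, so the order of that pair was not set. The place of Rian depends on how its row is counted: Rian shares all its values with a second identifier, and with both rows summed it measured 17.4 ± 2.38 CPM per kb, above Meg3 in 7 of 8 mice and above Nnat in 5 of 8. With the longest transcript in place of all exons, the order of Snrpn and Nnat (6 of 8 mice), Nnat and Meg3 (5 of 8) and Meg3 and Rian (3 of 8) also varied between mice. By CPM without division by exon length, Gnas and Peg3 each ranked at percentile 99.5 of the 15474 genes tested. Meg3 ranked at percentile 98.2 and Dlk1 at percentile 7.14.

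**Figure D1:**
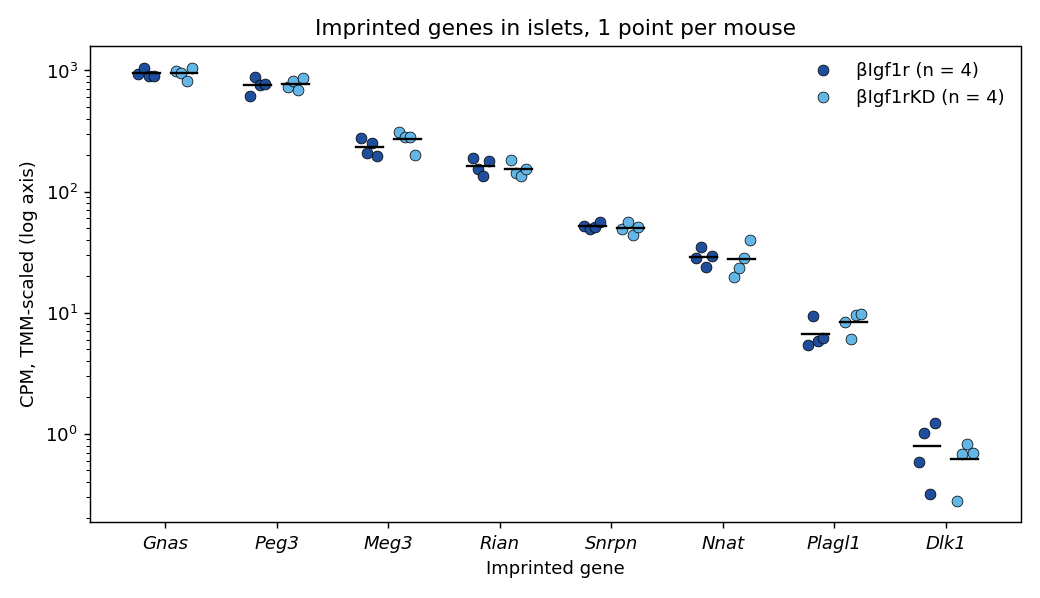
CPM of the 8 imprinted genes that passed the count filter, on a log axis, with 1 point per mouse (dark blue, βIgf1r; light blue, βIgf1rKD; bars, group means). Gnas (816 to 1056 CPM) and Peg3 (614 to 887 CPM) lie highest and Dlk1 (0.281 to 1.23 CPM) lowest, and for each gene the points of the groups overlap; H19, with 0 to 4 counts, is not drawn.

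No difference between βIgf1rKD and βIgf1r islets was detected for any of the 8 genes that passed the count filter (at least 10 counts in 4 mice). At an unadjusted p under 0.05 there were 0 of 8, by edgeR, DESeq2 and limma-voom alike, beside 4.12% of all genes tested by edgeR (2.23% higher and 1.89% lower in βIgf1rKD islets). The adjusted p passed 0.05 in 0 of 8, beside 0% of all genes. The groups failed to overlap in 0 of 8, beside 2.22% of all genes (0.956% higher and 1.27% lower). Of the fold changes, 4 lay above 0 and 4 below, beside 52.3% and 47.7% of all genes, with a median log2 fold change of -0.022 against 0.008 over all genes.

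The Dlk1-Dio3 cluster lies on chromosome 12 (GRCm38) and supplied 3 of the genes. Dlk1 (chr12:109452823-109463336) encodes a membrane protein of the Notch ligand family that restrains differentiation and is known from the pituitary and the β-cell. Meg3 (chr12:109541001-109571726) is a long non-coding RNA from the same cluster, known for its high level in β-cells and pituitary, and Rian (chr12:109603940-109661716) is a long RNA that hosts small nucleolar RNAs.

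Meg3 measured 275, 207, 253 and 197 CPM in βIgf1r mice M148, M151, M152 and M153. In βIgf1rKD mice M145, M146, M149 and M150 it measured 313, 281, 284 and 202 CPM. In βIgf1rKD islets, 3 mice lay above all βIgf1r mice and the other, M150, fell among the lowest of the series. The log2 fold change was 0.21 ± 0.16 (SE), with a 95% interval from -0.15 to 0.57 (unadjusted p = 0.219, adjusted p = 0.987, edgeR). Without M150 it was 0.33 with an unadjusted p of 0.0496 (edgeR). M150 was picked for lying apart from its group, so this p is a description and not a test. With each mouse left out in turn, the log2 fold change ran from 0.13 to 0.33, with unadjusted p from 0.0496 to 0.461 (edgeR).

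Rian measured 188, 155, 134 and 179 CPM in the βIgf1r mice, in the same order, and 183, 143, 136 and 154 CPM in the βIgf1rKD mice. Both groups covered almost the same range. Its log2 fold change was -0.09 ± 0.13 (95% interval -0.39 to 0.21, unadjusted p = 0.506, edgeR).

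Dlk1 had between 9 and 28 counts in βIgf1r mice and between 6 and 28 in βIgf1rKD mice. These counts are 0.586, 1.02, 0.320 and 1.23 CPM in βIgf1r mice and 0.281, 0.678, 0.827 and 0.691 CPM in βIgf1rKD mice. The highest mouse was 4.39-fold above the lowest, and within-group spread of Dlk1 ranked at percentile 92.6 of all genes. That rank is against genes of every level. Counts this low carry a larger counting error, and its part in the spread was not tested. The log2 fold change of Dlk1, -0.32 ± 0.46, had a 95% interval from -1.34 to 0.71, which is 0.394-fold to 1.63-fold (unadjusted p = 0.505, edgeR). A difference of 2-fold downward thus lay within the interval.

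Meg3 exceeded its paternally expressed neighbour Dlk1 by a mean of 349-fold in CPM, a log2 ratio between 7.24 and 9.80 over the mice. The log2 ratio of Meg3 to Dlk1 did not differ detectably between the groups (difference 0.46, exact permutation test, two-sided p = 0.486, n = 4 per group). Dlk1 and Rian each share their values in all 8 mice with a second identifier that has no symbol. Summing the identical rows brings Dlk1 to 1.41 CPM and Rian to 318 CPM and leaves the fold changes at -0.33 and -0.09. Meg3 stays at 251 CPM, so its excess over Dlk1 is smaller with the rows summed.

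**Figure D2:**
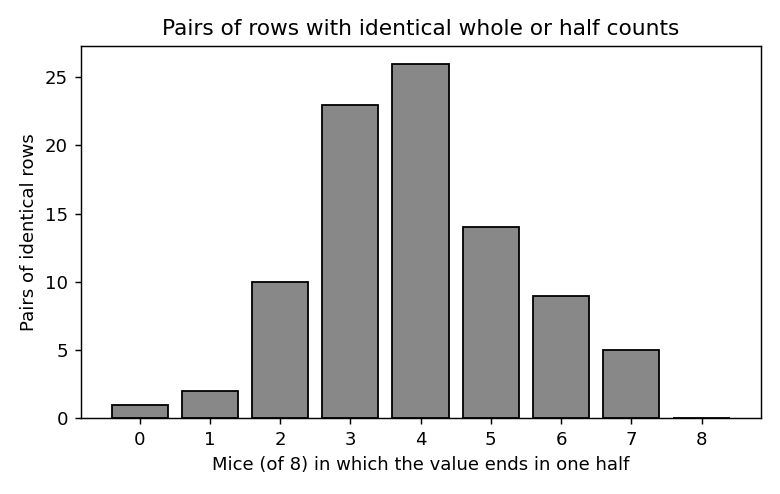
Pairs of identical rows whose values are all whole or end in 0.5, by the number of mice (of 8) in which the value ends in 0.5. Of these 90 pairs, 89 hold at least 1 such value, and 26 pairs hold it in 4 mice.

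The identical rows were not particular to these genes. Among 15615 identifiers with a total of 80 or more counts there were 169 sets with identical values in every mouse, of which 166 were pairs, and in 162 pairs 1 identifier had no symbol. In 90 pairs every value was whole or ended in 0.5 (tolerance 1e-06), and 49.2% of these values ended in 0.5. Dlk1 was the 1 pair without a value ending in 0.5. Whether reads of 1 transcript were divided between both identifiers was not tested, so the levels of Dlk1 and Rian given above may be too low by a factor of 2.

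Across mice, Meg3 moved with Mirg (chr12:109729764-109749460), the microRNA host downstream of Rian. Mirg measured 11.9, 7.02, 10.2 and 7.77 CPM in βIgf1r mice and 13.6, 12.7, 9.32 and 8.61 CPM in βIgf1rKD mice. The mice low in Meg3 (M150, M151 and M153) were the mice lowest in Mirg. Pearson's r of log2 CPM was 0.875 (exact permutation p = 0.00923, adjusted over 7 pairs 0.0646, n = 8), Spearman's rho was 0.786 (exact permutation p = 0.0279, adjusted 0.195), and the pair therefore missed the threshold after adjustment. The r was 0.877 without the mice farthest from the median, M150 and M153, and 0.848 within groups.

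The other pairs of the cluster gave weaker values. Meg3 and Rian, transcribed from the same strand of the same parental copy, had r = -0.03 (exact permutation p = 0.947, n = 8) and rho = -0.02 (p = 0.977). Dlk1 and Meg3 had r = -0.65 (exact permutation p = 0.0890, adjusted 0.311, n = 8), rho = -0.62 (p = 0.115) and r = -0.63 without M145 and M152. Dlk1 and Rian had r = 0.02 (exact permutation p = 0.963, n = 8) and rho = -0.05 (p = 0.935). The ratio of Rian to Meg3 had a log2 difference between groups of -0.29 (exact permutation p = 0.257) and that of Mirg to Meg3 of 0.06 (p = 0.571, exact), with 70 possible assignments and a smallest p of 0.0286.

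**Figure D3:**
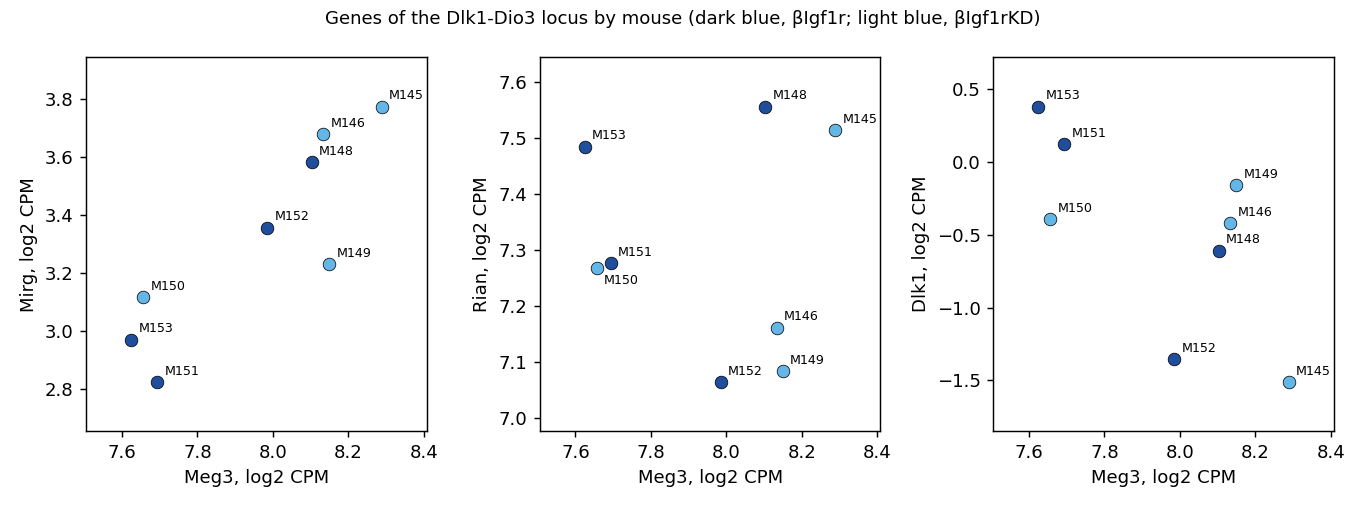
Log2 CPM of Mirg, Rian and Dlk1 against Meg3, with 1 labelled point per mouse (dark blue, βIgf1r; light blue, βIgf1rKD). The points rise together for Mirg (r = 0.875), show no slope for Rian (r = -0.03) and fall for Dlk1 (r = -0.65), whose counts were between 6 and 28.

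The remaining genes of this cluster were at or near 0. Rtl1, a retrotransposon-derived paternal gene, had 0 counts in all 8 mice, and Dio3, the enzyme that inactivates thyroid hormone, had 0 to 5.

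Peg3 (chr7:6703892-6730431, minus strand) encodes a large zinc finger protein with roles in growth, maternal behaviour and apoptosis. It measured 614, 887, 761 and 767 CPM in βIgf1r mice and 726, 822, 684 and 871 CPM in βIgf1rKD mice. The lowest and the highest mouse, M148 and M151, both belonged to the βIgf1r group. Its log2 fold change was 0.04 ± 0.15 (95% interval -0.30 to 0.37, unadjusted p = 0.820, edgeR), so a change beyond 0.811-fold or 1.29-fold lay outside the interval. Usp29, a paternal gene read the other way from a start 147 bases from that of Peg3, was 23.7-fold lower in CPM on average (18.3-fold to 28.1-fold over the mice). The ratio of Peg3 to Usp29 differed by 0.16 on the log2 scale between groups (exact permutation p = 0.314), and across mice the pair had r = 0.39 (exact permutation p = 0.345, n = 8), rho = 0.595 (p = 0.132) and r = 0.61 without M148 and M151.

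A promoter window of Meg3 and that of Peg3 both hold the palindrome TGACGTCA, the full site for the cyclic AMP response element binding protein. No other motif was searched for. The palindrome was absent from the windows of Gnas, the highest gene of the set, from that of Rian and from the other Meg3 window. The windows of 300 bases below, from RefSeq (GRCm38.p6), run from 250 bases before the start to 50 after it, on the strand of the gene, with the palindrome in capitals. The Meg3 window shown is chr12:109540746-109541045 on the plus strand and the Peg3 window is chr7:6730370-6730669 on the minus strand.
Meg3: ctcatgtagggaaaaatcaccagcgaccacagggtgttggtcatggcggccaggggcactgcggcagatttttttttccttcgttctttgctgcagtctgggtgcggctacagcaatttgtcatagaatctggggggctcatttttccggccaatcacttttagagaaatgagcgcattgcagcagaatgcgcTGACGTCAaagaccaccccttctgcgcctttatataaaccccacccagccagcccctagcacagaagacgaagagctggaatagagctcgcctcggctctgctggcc
Peg3: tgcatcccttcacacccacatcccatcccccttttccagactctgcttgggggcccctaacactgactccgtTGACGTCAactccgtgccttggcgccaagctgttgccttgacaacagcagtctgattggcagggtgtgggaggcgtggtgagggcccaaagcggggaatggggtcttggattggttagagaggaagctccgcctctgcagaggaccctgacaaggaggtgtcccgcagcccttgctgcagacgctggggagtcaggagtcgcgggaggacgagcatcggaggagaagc
The palindrome began at position -57 from the start of Meg3 and at position -178 from that of Peg3. It reads the same on both strands, and it was found in 2 of the 15 windows available for 8 of the 9 genes, beside 1.79% of all 32851 windows (588 windows). A match is a description of these letters and not evidence of binding.

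Gnas (chr2:174284320-174346744) encodes the stimulatory G protein α subunit that couples the GLP-1 and glucagon receptors to cyclic AMP, and alternative promoters of the locus give the large XLαs and the Nesp transcripts. It measured 930.3, 1055, 894 and 904 CPM in βIgf1r mice and 986, 961, 816 and 1056 CPM in βIgf1rKD mice. It was among the steadiest genes of the set, the highest mouse standing 1.3-fold above the lowest. The log2 fold change was 0.01 ± 0.14 (95% interval -0.29 to 0.32, unadjusted p = 0.923, edgeR). The count pools all its promoters, so a shift between them would not appear in it. Nespas, the antisense paternal RNA of the locus, had 2 to 16 counts and shares 988 exon bases with Gnas on the opposite strand.

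Nnat (chr2:157560078-157562522) encodes neuronatin, a small membrane protein of the endoplasmic reticulum that takes part in insulin processing. It measured 28.3, 34.9, 24.0 and 29.2 CPM in βIgf1r mice and 19.6, 23.4, 28.3 and 39.5 CPM in βIgf1rKD mice. The lowest and the highest mouse, M145 and M150, were both βIgf1rKD, a 2.01-fold range. The log2 fold change was -0.07 ± 0.20 (95% interval -0.52 to 0.39, unadjusted p = 0.753, edgeR).

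Nnat lies inside an intron of Blcap, a maternally favoured gene on the opposite strand, and shares 0 exon bases with it. Blcap varied little, from 43.5 to 55.3 CPM. The log2 ratio of Nnat to Blcap differed by -0.03 between groups (exact permutation p = 0.914), and the pair had r = -0.07 across mice (exact permutation p = 0.861, n = 8) and rho = -0.14 (p = 0.752). Relative to Iapp, the β-cell peptide hormone amylin, Nnat differed by 0.10 on the log2 scale between groups (exact permutation p = 0.771).

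Plagl1 (chr10:13060504-13131694) encodes a zinc finger protein that restrains the cell cycle, and overexpression of its human counterpart is tied to transient neonatal diabetes. It measured 5.43, 9.31, 5.80 and 6.16 CPM in βIgf1r mice and 8.33, 6.03, 9.62 and 9.77 CPM in βIgf1rKD mice. In βIgf1rKD islets, 3 mice stood above 3 of the βIgf1r mice, and 1 mouse of each group, M151 and M146, lay with the other group. The log2 fold change of 0.34 ± 0.21 was the largest upward value of the 8 genes (95% interval -0.13 to 0.81, unadjusted p = 0.139, adjusted p = 0.987, edgeR). It became 0.54 (unadjusted p = 0.0158, edgeR) without M151 and 0.47 (unadjusted p = 0.0389, edgeR) without M146. These mice were picked for lying with the other group, so both p-values are descriptions and not tests. At an unadjusted p under 0.05 the whole table gave 749 genes without M151 and 960 without M146. With each mouse left out in turn, Plagl1 ran from 0.25 to 0.54, with unadjusted p from 0.0158 to 0.302 (edgeR).

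Snrpn (chr7:59982495-60140219, minus strand) encodes a spliceosome protein from the cluster lost in Prader-Willi syndrome. It measured 52.0, 49.4, 51.4 and 55.7 CPM in βIgf1r mice and 49.0, 56.4, 43.8 and 51.0 CPM in βIgf1rKD mice. Its range was narrow, 1.29-fold between the highest and the lowest mouse. The log2 fold change was -0.06 ± 0.09, with the tightest interval of the set (-0.25 to 0.14, unadjusted p = 0.521, edgeR), 0.841-fold to 1.10-fold. On the same strand Snrpn shares 589 exon bases (27.3% of its own) with Gm38393, which had 16 to 34 counts, and 216 with Snurf, which had 30 to 70 counts, so reads of the shared exons may have gone to either gene. Ndn, the paternal gene of necdin in the same cluster, was lower than Snrpn by a mean of 1.48-fold in CPM. The log2 ratio differed by 0.08 between groups (exact permutation p = 0.486) and the pair had r = 0.56 (exact permutation p = 0.147, n = 8), rho = 0.286 (p = 0.501) and r = 0.05 without M146 and M149.

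H19 (chr7:142575529-142578143, minus strand), the maternal non-coding RNA near Igf2 on the same strand, was near the limit of detection. Counts were 0, 1, 0 and 3 in βIgf1r mice and 1, 0, 1 and 4 in βIgf1rKD mice, and the gene did not pass the filter. In the mice with 0 counts, 3 counts would be 0.0799 to 0.107 CPM, the level that depth still allows (counting error only). Igf2, its paternal neighbour encoding insulin-like growth factor 2, was present at 8.01 to 13.8 CPM in βIgf1r and 10.2 to 14.7 CPM in βIgf1rKD islets, with a log2 fold change of 0.23 (unadjusted p = 0.216, edgeR).

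Of 48 further imprinted genes listed from general knowledge, 38 passed the filter. Of these, 12 had a fold change above 0 and 26 below (68.4%, beside 47.7% of all genes), with a median log2 fold change of -0.035 and a range from -0.40 to 0.75. None reached an unadjusted p under 0.05 by edgeR (0 of 38, smallest p 0.0632) and the groups overlapped in all 38. Those listed as read from the paternal copy had a median of -0.10 (15 of 20 below 0) and those listed as read from the maternal copy -0.008 (11 of 18 below 0). The parental copy was taken from general knowledge and was not measured in these islets. All 6 tested genes of the Snrpn cluster, Snrpn included, had values below 0, from -0.27 to -0.01, none with an unadjusted p under 0.05. The highest of the 38 per kb of exon were Slc38a4, an amino acid transporter, at 45.9 ± 9.08 CPM per kb, Tssc4 at 35.8 ± 7.38 and the non-coding Peg13 at 27.8 ± 2.25 (SD, n = 8).

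**Figure D4:**
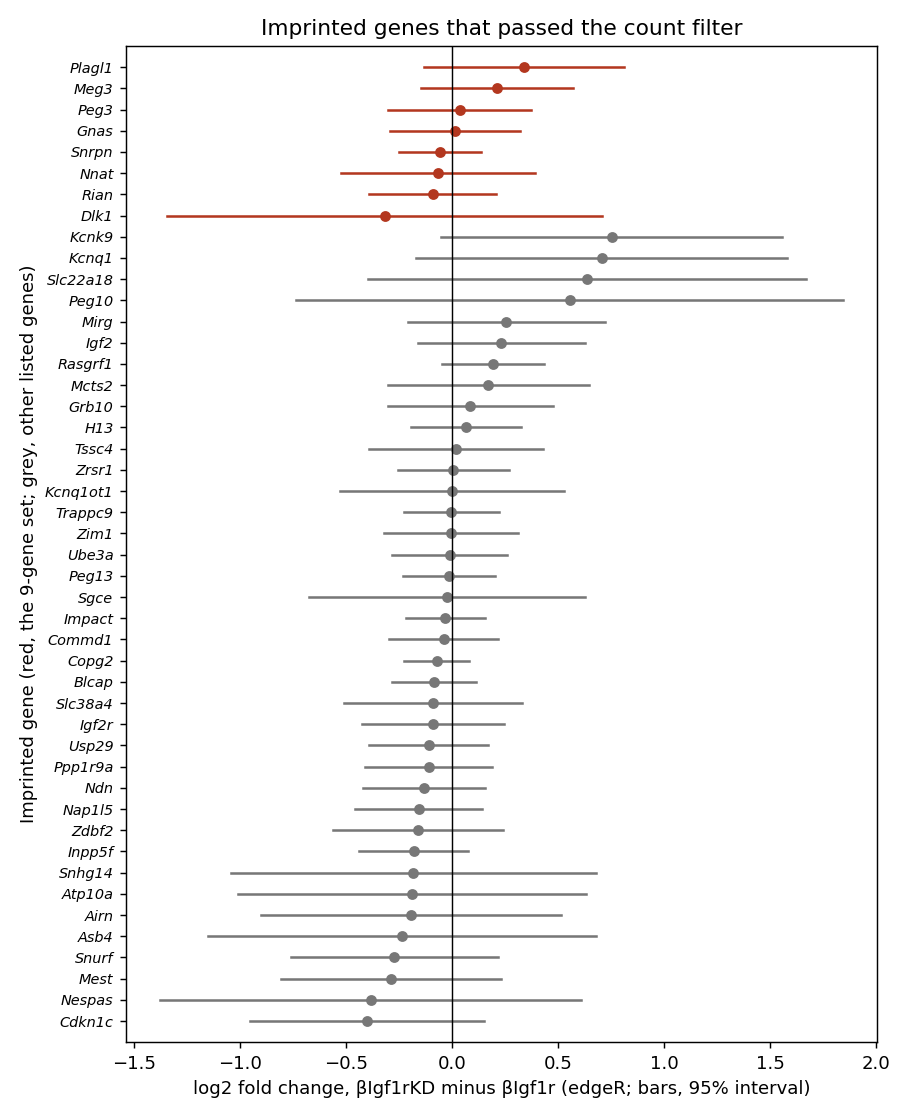
Log2 fold change (βIgf1rKD minus βIgf1r) with its 95% interval from edgeR for the 8 imprinted genes of the set (red) and the 38 other imprinted genes tested (grey). Every interval includes 0, and that of Snrpn, -0.25 to 0.14, is the narrowest among the red ones.

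Markers of other cell types were compared in the same way. All 8 endothelial markers had fold changes below 0 in βIgf1rKD islets, 4 of them with an unadjusted p under 0.05 by edgeR, and their summed share was 0.0487 to 0.0727% of counts in βIgf1r and 0.0344 to 0.0523% in βIgf1rKD islets. With an endothelial score as covariate, which did not overlap between the groups, the log2 fold changes turned to -0.34 for Peg3, -0.20 for Plagl1, -0.20 for Gnas, 0.08 for Rian and 0.02 for Snrpn, and no gene of the set reached an unadjusted p under 0.05. All 12 acinar markers had fold changes above 0, none with an unadjusted p under 0.05, and their summed shares overlapped. The 6 macrophage markers also had fold changes above 0 (median log2 0.496, 1 with an unadjusted p under 0.05) and the 4 glial markers fold changes below 0 (median log2 -0.33, 0 with an unadjusted p under 0.05). The other lists were mixed. Duct markers had 4 above 0 and 1 below (median log2 0.992), mesenchymal 5 and 3, β-cell 3 and 4, α-cell 2 and 4, and δ-cell 1 and 3. Ppy, the 1 marker of PP cells, lay below 0. Of these, 1 mesenchymal and 1 β-cell marker had an unadjusted p under 0.05 by edgeR. With an acinar score as covariate the 8 genes kept their directions. The part of these cell types in the values above was not tested further.

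Over the 8 mice, the imprinted gene most like each member by Pearson's r of log2 CPM was Mirg for Meg3 (0.875), Slc38a4 for Rian (0.948), Igf2r for Peg3 (0.873), Peg10 for Gnas (0.946) and Mest for Nnat (0.914). It was Igf2 for Plagl1 (0.863), Peg13 for Snrpn (0.763) and Cdkn1c for Dlk1 (0.737). Among all genes tested, the most alike were Mesp1 for Meg3 (0.972), 8430429K09Rik for Rian (0.974), Zbtb8b for Peg3 (0.965), Sphkap for Gnas (0.982) and Bex1 for Snrpn (0.981). Each value is the highest r found, among the imprinted genes or among all genes tested. The mice differed in library depth and in their shares of cell-type markers, and the values are given as a description.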

How the data were processed

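RNA-seq was performed on islets of 8 mice (4 βIgf1r, 4 βIgf1rKD), 1 stranded poly(A) library per mouse. The authors deposited estimated counts per gene and mouse, and the submitters' processing notes name fastp, kallisto and GRCm38. The annotation release, the strand setting and the way transcripts were summed to genes are not given in the sources used here. Symbols were matched for 51906 of 53012 identifiers (200 share a symbol), and positions and exon lengths are from GENCODE M21 (GRCm38). Of the values, 13.4% were not whole, and all were rounded. Libraries held 21633925 to 42391106 counts, and no pair within a group agreed within sampling noise (chi-square per degree of freedom at least 79.1).

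Genes passing filterByExpr (minimum count 10 in 4 mice, total 15) were fitted with edgeR 4.0.16 in R 4.3.3 (TMM, quasi-likelihood test, Benjamini-Hochberg over 15474 genes). log2 CPM used a prior count of 2. Ratios and correlations used exact permutation tests, two-sided. DESeq2 1.42.0, limma 3.58.1 (voom), no filter, 10 counts in every mouse, a prior count of 0.5, marker and Xist covariates, and leaving out each mouse were alternatives. Summing identical rows was added after the data were seen. On simulated data for this comparison, 2-fold changes were recovered for 70% of 200 genes (8 false calls among 15316 genes). The changed genes were drawn without the lowest-expressed genes, so the share does not cover a gene as low as Dlk1. It applies to a table with 200 changed genes, since the adjusted p depends on how many genes change. Named genes were the 9 set genes, their cluster neighbours used in ratios or pairs, the 3 highest of the other imprinted genes and the genes most alike in pattern. Other genes named were chosen after their values were seen. The set and all lists were chosen with earlier results of these data known.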

Additional observations from a re-analysis of the deposited data

Results flagged for a closer look

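In 2 of 30 sets of 4 mice, 1 mouse stood apart from the other three by the gap to its nearest neighbour relative to the whole range, where chance would give 1.5. The log2 ratio of Nnat to Blcap was -0.32 in βIgf1r mouse M151 and -0.92 to -0.90 in the other βIgf1r mice, a gap of 0.963 of the range. The log2 ratio of Snrpn to Ndn was 0.362 in βIgf1rKD mouse M150 and 0.662 to 0.704 in the other βIgf1rKD mice, a gap of 0.878 of the range. M151 and M150 were also the mice with the highest summed share of α-cell markers in their groups, 4.94% and 2.94% of counts; its part in the ratios was not tested.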

How the results depend on the processing

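No paired analysis was possible because no mouse number occurs in both groups. No gene of the set passed an adjusted p of 0.05 under any alternative run. DESeq2 called 8 and limma-voom 1 genes of the whole table at that threshold. At an unadjusted p under 0.05 the whole table gave 1098 genes with no filter, 381 with the acinar score and 1143 with Xist as covariate, and 2 of the other imprinted genes under each of the acinar, endothelial and Xist covariates. The endothelial score reversed Rian (0.0811), Peg3 (-0.34), Plagl1 (-0.20), Gnas (-0.20), Snrpn (0.0166), Igf1r (0.0318), Igf2 (-0.12), Blcap (0.22) and Peg13 (0.10). The acinar score reversed Peg13 (0.0258), and Xist reversed Peg3 (-0.0556), Gnas (-0.0895) and Igf1r (0.0232). The cause was not tested.

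Leaving out 1 mouse at a time moved the whole-table count between 383 (without M148) and 1114 (without M152). It moved the set's between 0 and 1, and the other imprinted genes' between 0 and 4. Without M151 there was 1 in the set and 4 in the other imprinted genes, beside 749 in the whole table. Without M146 there was 1 in each, beside 960 in the whole table. Log2 fold changes ran from -0.0539 to 0.12 for Peg3, -0.0393 to 0.0822 for Gnas, -0.29 to 0.0666 for Nnat, -0.12 to 0.0014 for Snrpn, -0.0651 to 0.0514 for Peg13, -0.17 to 0.13 for Tssc4, -0.24 to 0.0085 for Slc38a4, -0.58 to -0.0382 for Dlk1, -0.18 to -0.0201 for Rian, -0.20 to -0.0207 for Usp29, 0.25 to 0.54 for Plagl1, 0.13 to 0.33 for Meg3 and 0.12 to 0.40 for Igf2. Log2 ratio differences ran from 0.0856 to 0.83 (Meg3 to Dlk1), -0.43 to -0.17 (Rian to Meg3), 0.0631 to 0.24 (Peg3 to Usp29), -0.0064 to 0.16 (Mirg to Meg3), -0.23 to 0.12 (Nnat to Blcap), -0.0756 to 0.27 (Nnat to Iapp) and -0.0043 to 0.16 (Snrpn to Ndn). Pearson's r ran from -0.77 to -0.49 for Dlk1 and Meg3 (-0.74, exact permutation p = 0.0339, without M152), -0.32 to 0.41 for Dlk1 and Rian, -0.33 to 0.21 for Meg3 and Rian, 0.20 to 0.68 for Peg3 and Usp29, 0.0361 to 0.75 for Snrpn and Ndn, and -0.27 to 0.13 for Nnat and Blcap. The values not given here kept their direction and side of the threshold, though their size varied. Depth limited Dlk1, at 6 to 28 counts, and H19, at 0 to 4.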

Other observations

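From the imprinted neighbours of 1 cluster, the paternal genes Peg10 and Sgce and the maternal gene Asb4 were set beside Gcg, the glucagon gene of α-cells. Ppp1r9a, which lies between Peg10 and Asb4 and passed the filter (26.3 to 41.3 CPM), was not compared with Gcg. Peg10, Sgce and Asb4 were picked from these mice after their values were seen, so the correlations below are descriptions with no test. Peg10, a retrotransposon-derived gene, measured 5.78, 16.99, 3.81 and 4.27 CPM in βIgf1r mice M148, M151, M152 and M153 and 10.01, 10.9, 3.48 and 20.6 CPM in βIgf1rKD mice M145, M146, M149 and M150. The range was 5.93-fold, and its within-group spread ranked at percentile 96.6 of all genes. The highest mouse of each group in Peg10, M151 and M150, was also the highest of its group in Gcg.

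Over the 8 mice, Sgce and Asb4 had r = 0.934 and rho = 0.929, and r = 0.82 without M146 and M151. With Gcg, r was 0.861 for Sgce (rho 0.714), 0.860 for Asb4 (rho 0.786) and 0.811 for Peg10 (rho 0.81). Without the mice farthest from the median these became 0.696, 0.674 and 0.482, so the value of Peg10 rested largely on M150 and M151. Peg10 had r = 0.651 with Sgce (rho 0.476) and r = 0.661 with Asb4 (rho 0.571), which became 0.076 and 0.416 without M150 and M151. The mice differed in library depth and in their shares of cell-type markers, and the part of α-cell content in these values was not tested.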
